A study of Ovis aries with 2 samples.

Results

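Cycling basal keratinocytes outside the hair matrix were selected from lamb skin by their own transcripts, and 220 of the 14037 sequenced cells met the rule. A cell was taken when at least 4 of the 6 mitosis genes TOP2A, BIRC5, MKI67, UBE2C, CENPF and CDK1 had a UMI (a tag that marks 1 captured RNA molecule), when the basal keratin KRT5 reached at least 20 UMIs per 10000 of the cell, and when genes of the hair matrix and inner root sheath were low. For the latter, DCN had to be under 10 UMIs per 10000, FABP7 at 0 and the inner root sheath (IRS) keratins KRT71, KRT25, KRT27 and KRT28 together under 20. The straight wool library gave 143 of these cells and the curly wool library 77.

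The cells came from body-side skin of 3-day-old Hu sheep lambs, chosen for straight or for waved wool (the curly library). Skin of 3 lambs was pooled for each wool type, a suspension of microdissected follicles was mixed with a suspension of whole skin, and each mixture gave 1 droplet library. The animals were healthy and kept alike, and local lidocaine at the biopsy is the single agent described. Because each wool type was a single pooled library, wool type and library cannot be told apart, no spread between lambs was measured, and no test or p-value is given. Intervals are exact 95% intervals and cover counting error only.

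The skin epithelium is renewed from its basal layer, where keratinocytes that make KRT5 and KRT14 sit on the basement membrane, copy their DNA, divide and send daughters upward that switch to KRT1 and KRT10. The outer root sheath of the follicle and the outer cells of skin glands make the same KRT5 and KRT14, whereas the rapidly dividing matrix of the hair bulb does so only weakly and is marked by genes such as MSX1, LEF1 and HOXC13. The rule therefore gathers dividing cells of every KRT5-high compartment and does not by itself separate epidermis from outer root sheath.

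Within each library the UMIs of a class of cells were summed and divided by all UMIs of that class, which gives UMIs per 1000000 (CPM), and each pair of values below is for the straight and then the curly library. The cycling basal cells held 2110687 and 1239725 UMIs, so that a gene without a UMI in them may lie at up to 1.42 and 2.42 CPM (3 counts). A cycling basal cell had a median of 15630 and 15733 UMIs, with ranges from 1264 to 26088 and from 1355 to 29681. Non-cycling cells that met the same KRT5, DCN, FABP7 and IRS keratin limits with none of the 6 mitosis genes (2082 and 2251 cells) had medians of 7279.5 and 7432. Cycling matrix cells, with at least 4 mitosis genes, FABP7 above 0, DCN at least 10 UMIs per 10000 and low IRS keratins (54 and 100 cells), had medians of 18663 and 18634.5. After each cell had been thinned to 3000 UMIs, the median number of genes was 1194 and 1155 in cycling basal, 1101 and 1042 in non-cycling and 1111 and 1134 in cycling matrix cells. No cell of the whole table had more than 3999 genes, and 16.1% and 10.4% of the cycling basal cells lay at 3800 genes or more against 1.73% and 1.33% of the non-cycling cells. The libraries shared 70 cell barcodes.

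The 6 mitosis genes and KRT5 chose the cells, so their levels are a description. TOP2A, the topoisomerase that untangles replicated DNA, was at 457 and 429.9 CPM, and BIRC5, the survivin subunit of the chromosomal passenger complex, at 285 and 241 CPM. MKI67, the proliferation antigen Ki-67, was at 104 and 89.5 CPM and had a UMI in 98 and 50 cells, the fewest after CDK1 among the 6. KRT5 stood at 14109 and 12588 CPM in cycling basal cells, close to the 13270.1 and 13414 CPM of non-cycling cells, and at 889.9 and 983 CPM in cycling matrix cells. Among basal markers that the rule did not use, KRT14, the pairing partner of KRT5, had a UMI in every one of the 220 cells. Its level per cell ran from 226 to 49141 CPM with a median of 15866 in straight cells, and from 146 to 44365 CPM with a median of 17212 in curly cells. TP63, the master transcription factor of stratified epithelia, had a UMI in 68 and 38 cells, and ITGA6, an integrin of the hemidesmosome, in 93 and 49. A KRT14 UMI was also found in 53 of 54 and 98 of 100 cycling matrix cells, whose medians were 240.2 and 263 CPM, so the lowest of the selected cells had no more KRT14 than matrix cells.

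At the limits of the rule, the lowest KRT5 among the selected cells was 20.2 UMIs per 10000 and the highest just outside was 19.5, with a median of 136 inside. The highest DCN inside was 7.91 and the nearest cell outside had 19.1, while 167 cells had none. For the IRS keratins these values were 14.8 and 23.0. FABP7 alone kept out 11 cells, 10 of them with 1 UMI. Cells with exactly 4 mitosis genes numbered 49 and 24, and cells with 3, just outside, 42 and 30. Scrublet, a doublet caller, marked 0.899% and 0.0264% of the libraries at its own threshold, so the highest 6% of scores in each library were examined as well, and these held 15 of the 143 and 13 of the 77 cells.

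The cycling basal cells made up 2.22% of the straight library (143 of 6452 cells, interval 1.87% to 2.61%) and 1.02% of the curly library (77 of 7585, interval 0.802% to 1.27%). Of all KRT5-high cells outside the matrix they were 4.91% in straight (143 of 2912, interval 4.15% to 5.76%) and 2.67% in curly (77 of 2880, interval 2.12% to 3.33%). In both ways of counting the curly share was lower and the intervals did not overlap. The mixture of follicle and whole-skin suspensions also sets such shares, and its part was not tested. Cells with more than 3999 genes were absent from the deposited values, and the part of this limit was not tested either.

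All cells with at least 4 mitosis genes were 5.52% and 5.29% of the libraries, so that the cycling basal cells were 40.2% of the dividing cells in straight (interval 35.0% to 45.5%) and 19.2% in curly (interval 15.5% to 23.4%). Cycling matrix cells lay the other way, at 0.837% and 1.32% of the libraries. The remaining dividing cells were 61 with IRS keratins, 188 with KRT5 under its limit, 82 with DCN but no FABP7 and 52 with FABP7 but little DCN over both libraries. Detection of 4 genes depends on depth, and the share rose with the UMIs of a cell in both libraries. Among KRT5-high cells with under 5000 UMIs, 1.60% and 0.710% were cycling basal cells, and with at least 15000 UMIs 15.1% (interval 12.1% to 18.5%) and 7.69% (interval 5.62% to 10.2%). The straight share was the higher in all 4 ranges of depth, although the intervals overlapped in the 3 lower ones. With every cell thinned to 3000 UMIs, and 575 and 396 shallower KRT5-high cells left out, the shares of KRT5-high cells were 1.80% and 1.03%.

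Cycling basal cells were compared with the non-cycling KRT5-high cells of the same library to see which genes accompany division in this compartment. A gene was called when its ratio passed 2-fold the same way in both libraries, with at least 50 UMIs over both classes in each library. Of 10144 genes compared, 449 were higher (4.43%) and 430 lower (4.24%) in cycling cells, and the median log2 ratio over all of them was 0.02 and 0.08. This is the contrast that the rule itself drew, so these counts describe the cells and support nothing.

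Most genes that license, fire and elongate replication were higher. Of the 30 DNA replication genes compared 25 were called higher and none lower, with a median log2 ratio of 1.55 and 2.22. PCNA, the sliding clamp of the DNA polymerases, was at 506 and 569.5 CPM against 115 and 79.9 in non-cycling cells, and CLSPN, which couples the fork to the checkpoint kinase, at 82.4 and 96 against 4.06 and 3.48. Subunits of the MCM helicase had smaller log2 ratios, such as 1.28 and 2.21 for MCM3 and 1.90 and 2.24 for MCM4, and MCM6 at 0.69 and 1.80 missed the call. MCM3 was at 0.93 with at least 5 mitosis genes required. The other genes that missed it were RFC2, RFC4, GINS2 and SLBP, each short of 2-fold in straight cells. Of 8 genes of nucleotide synthesis 7 were called higher, led by RRM2, the regulated subunit of ribonucleotide reductase, at 136 and 159.7 against 7.36 and 5.03 CPM, and DUT, the dUTPase, at 1309 and 1588 against 144 and 106. CAD, which starts pyrimidine synthesis, was at 2.37 and 6.45 CPM against 2.65 and 2.66 and was not called.

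The genes of mitosis differed by more. All 19 cyclins, mitotic kinases and cell cycle transcription factors that could be compared were called higher, with a median of 5.23 and 5.26, and no gene of the lists from replication to chromatin was called lower. CCNB1, the cyclin B that drives entry into mitosis, was at 240.2 and 132 CPM against 3.83 and 3. AURKB, the kinase of the chromosomal passenger complex, stood at 155 and 178 CPM against 1.35 and 2.22. E2F1 was called on small sums, at 6.16 and 14.5 CPM against 2.71 and 1.98.

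Of 23 kinetochore and centromere genes 22 were called higher, with DSN1 the exception at 0.73 and 1.57. CENPE, the motor that carries chromosomes to the spindle equator, was at 139 and 100 CPM against 1.35 and 0.773, and CENPA, the histone variant that marks the centromere, at 242 and 165 against 2.94 and 2.27. Of 23 genes of the spindle, the kinesins and cytokinesis 22 were called higher, and KIF5B, a kinesin of vesicle transport that is not tied to division, was at 229 and 186 CPM against 234 and 196. ASPM, which organizes the spindle poles, had the largest ratio outside the 6 genes of the rule, ranked by the smaller of its library values, at 56.4 and 38.7 CPM against 0.235 and 0.0967. DLGAP5, another spindle assembly factor, followed at 59.7 and 50.8 against 0.294 and 0.338.

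All 14 genes of condensin, cohesin and chromosome structure were called higher, among them the condensin ATPase SMC4 at 468 and 415 CPM against 40.2 and 30.4. Of 11 genes of the anaphase-promoting complex and its partners 9 were called higher. CDC20, the activator of that complex, was at 280.5 and 165 CPM against 1.77 and 1.64, whereas its stable subunits ANAPC5 and ANAPC11 had ratios of 0.80 and 0.77 and of 0.73 and 1.17. Of 17 genes of proliferation chromatin and tubulin 15 were called higher, with HMGB2, a chromatin protein, at 1374 and 1303 against 148 and 90.2 CPM and PCLAF, a partner of PCNA, at 486 and 462 against 8.83 and 7.39. EZH2 and TUBA1C were not called.

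Outside these lists the genes with the largest ratios were CDCA3, a trigger of mitotic entry, at 285 and 229.9 CPM against 2.41 and 1.45, CDKN3, a phosphatase of cyclin-dependent kinases, at 79.6 and 54.9 against 0.883 and 0.338, and MXD3, a MYC network repressor, at 156 and 162 against 1.88 and 1.16. The other 12 of the leading 15 had log2 ratios of at least 4.51, among them DIAPH3 (a formin), ESCO2 (a cohesin acetyltransferase), TACC3, SPAG5, GTSE1, PBK and PIMREG. Most of these are known from chromosome segregation or cytokinesis.

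The regulators of the G1 phase did not follow. Of 14 D cyclins, cyclin-dependent kinases and their inhibitors 2 were called higher and 1 lower, with a median of -0.44 and 0.02. CCND1, the cyclin that links growth signals to the cycle, was at 168 and 262 CPM against 257 and 227, and CCND2 at 38.9 and 21.8 against 78.1 and 37.1. Both genes that were called higher encode inhibitors of CDK4 and CDK6. CDKN2C (p18) was at 66.3 and 96.8 CPM against 6.65 and 6.43, and CDKN2D (p19) at 87.2 and 71.8 against 30.9 and 18.2. CDKN1C (p57) was the gene called lower, at 22.7 and 31.5 against 47.5 and 82.3, and CDKN1A (p21) had log2 ratios of -0.47 and -1.28 without a call. CDKN1C lay under 2-fold with 3 mitosis genes allowed (-0.92).

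Receptors and ligands of keratinocyte growth were compared next. Of 9 genes of the EGFR family 2 were called lower, the ligand AREG at 77.7 and 16.1 CPM against 172 and 134 and the receptor's restrainer LRIG1 at 13.3 and 16.9 against 29.1 and 35.7, while EGFR itself was at 42.2 and 37.1 against 47.3 and 41.6. Of 10 other growth receptors and ligands 1 was called lower (PDGFB, at 3.32 and 0.807 against 10.7 and 7.78). None of the 28 WNT, BMP, NOTCH and hedgehog genes passed, near the shares over all genes (4.43% and 4.24%). LRIG1 passed no longer under 5 alternatives (-0.60 to -0.98), nor AREG with each cell given the same weight (-0.98). In the list of WNT and related genes WNT3, an epidermal WNT ligand, had ratios of 0.68 and 1.30 and WNT4 of 0.65 and 1.15, below 2-fold in straight cells. None of the 22 immediate early genes, which tissue dissociation can induce, was called, again near the shares over all genes. Their summed level was 9731 and 8287 CPM in cycling and 11208 and 9850.2 in non-cycling cells.

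**Figure D1:**
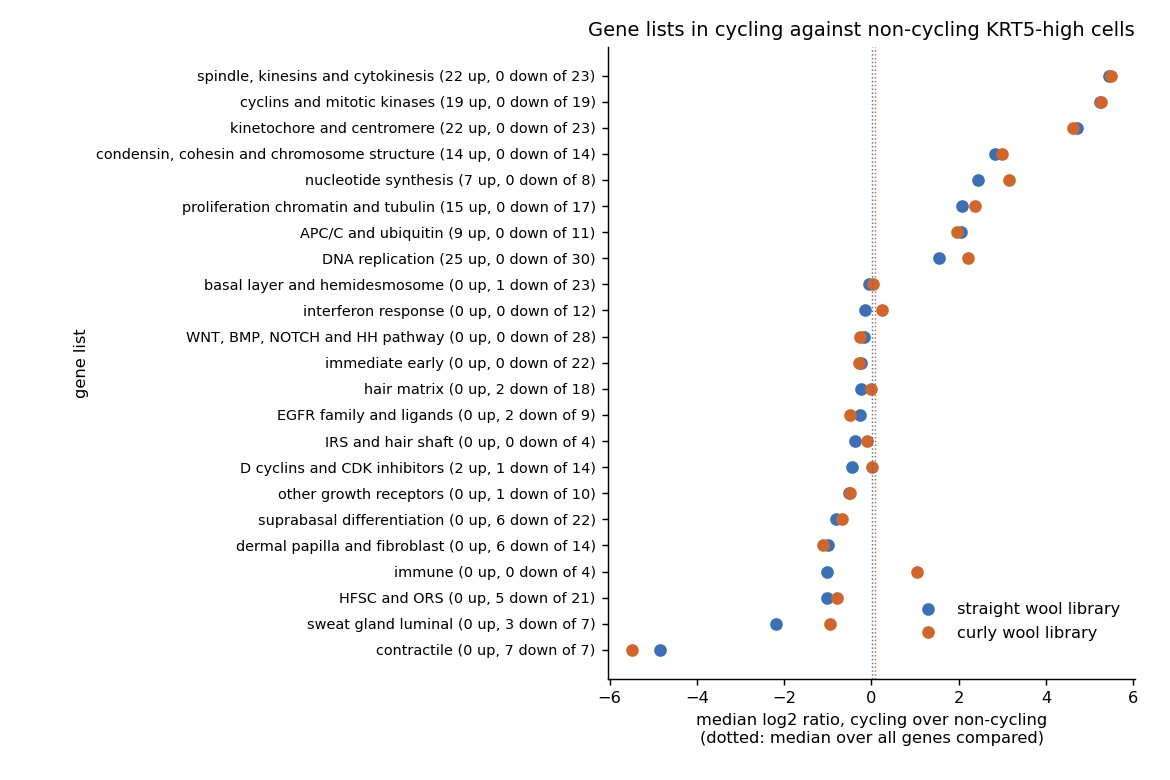
Median log2 ratio of cycling basal over non-cycling KRT5-high cells (horizontal axis) for each gene list with at least 4 genes compared (vertical axis, with the number called higher and lower), in the straight (blue) and curly (orange) library; dotted lines mark the median over all 10144 genes. The cell cycle lists lie between 1.55 and 5.49, the basal list at the dotted lines and the contractile list at -4.84 and -5.48.

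The mitosis genes of the rule could favour cells late in the cycle, so transcripts of DNA synthesis (replication and nucleotide lists) and of mitosis (cyclin, kinetochore and spindle lists) were counted in each cell thinned to 3000 UMIs. In the 133 straight cells deep enough, the median was 10 synthesis UMIs (range 1 to 38) and 17 mitosis UMIs (range 3 to 66). In the 75 curly cells it was 15 synthesis UMIs (range 2 to 39) and 18 mitosis UMIs (range 1 to 49). Such transcripts are not limited to dividing cells, since before thinning 88.5% and 88.4% of the non-cycling cells had a UMI of the replication list and 79.4% and 79.1% of the spindle list. Mitosis UMIs outnumbered synthesis UMIs in 88 straight cells (66.2%) and 41 curly cells (54.7%). The lists differ in length, at 33 and 8 genes for synthesis and 26, 26 and 29 for mitosis. The cells were also chosen on mitosis genes, so the larger sum does not place a cell in the cycle.

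Of 23 basal layer and hemidesmosome genes none was called higher and 1 lower, near the shares over all genes (4.43% and 4.24%), with a median of -0.07 and 0.04. KRT14 was at 17161 and 17343 CPM against 12001 and 17819, COL17A1, the collagen of the hemidesmosome, at 362 and 405 against 306 and 242, and ITGB4, its integrin partner, at 119 and 77.4 against 108 and 72.3. The gene called lower was KRT15, a keratin of resting basal and follicle stem cells, at 1766 and 770.3 CPM against 3872 and 2986. Its medians per cell were 652 and 222 CPM, and single cells reached 16462 and 6423 CPM, so KRT15-rich cells were present among the dividing ones.

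Genes of differentiation above the basal layer were lower in part in summed UMIs. Of 22 suprabasal genes 6 were called lower and none higher, with a median of -0.82 and -0.69. Per cell, the list had medians of 2168 and 4173 CPM in cycling and 2541 and 4359 CPM in non-cycling cells. The 90th percentiles were 6223 and 10152 against 22805 and 40685 CPM, so the classes differed mainly in their richest cells. CST6, a cystatin of the cornifying layers, was at 753 and 1499.5 CPM against 3630.5 and 8511. SPINK5, an inhibitor of kallikrein proteases, was at 8.53 and 25.8 CPM against 82.1 and 211, and KLK7, such a protease, at 12.3 and 38.7 against 68 and 587. KRT79, KRTDAP and SBSN were the other genes called lower, with log2 ratios from -1.36 for KRTDAP in curly cells to -2.31 for KRT79 in curly cells. The KRTDAP medians per cell were not lower, at 153 and 314 CPM in cycling and 114 and 312 CPM in non-cycling cells. KRT10 was at 604 and 1407 CPM against 2979 and 2428 and KRT1 at 442 and 740.5 against 1779 and 1345, lower by more than 2-fold in straight but not in curly cells, where 37% of the KRT10 UMIs lay in 1 cell. The late envelope genes LOR and FLG were low in both classes, at no more than 19.8 CPM.

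Of 21 genes of follicle stem cells, outer root sheath and companion layer 5 were called lower and none higher, with a median of -1.03 and -0.78. KRT6A, the companion layer keratin, was at 79.1 and 118 CPM against 796 and 2523, and LGR5, a stem cell receptor for R-spondins, at 4.74 and 8.87 against 30.6 and 47.8. KRT17, a keratin of the outer root sheath, was at 6026 and 3391 CPM against 12268 and 10313, and CXCL14, a chemokine of the follicle, at 1403 and 575 against 2865 and 1312. NFATC1, a transcription factor of resting stem cells, was the fifth, at 8.53 and 1.61 against 18.7 and 11. SOX9, the outer root sheath factor, was at 157 and 120.2 against 255 and 285 without a call. With every cell thinned to 3000 UMIs and the rule applied again, 43 and 26 cycling basal cells were left. KRTDAP and CXCL14 then dropped under 2-fold (-0.69 and -0.89 for the library nearer to 0). KRT17 and KRT79 did so when each cell was given the same weight (-0.97 and -0.77). NFATC1 was at -0.79 with 3 mitosis genes allowed.

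The genes that set the classes furthest apart in this direction belonged to contractile cells. All 7 contractile genes compared were called lower, with a median of -4.84 and -5.48, and their summed level was 79.1 and 79 CPM in cycling against 1744 and 3810.3 in non-cycling cells. ACTG2, a smooth muscle actin, had the lowest ratio of all genes compared (by the library nearer to 0), log2 -6.20 and -6.37, with ACTA2 at 4.26 and 8.87 CPM against 296 and 768, and the muscle myosin MYH11 at 1.42 and 2.42 against 48.8 and 158. Myoepithelial cells of glands are known to make KRT5 and these muscle genes together. A contractile UMI was found in 51.05% and 61.04% of cycling and in 42.03% and 59.4% of non-cycling cells. Medians per cell were 42.6 and 50.6 CPM against 0 and 103 CPM. The highest cells held 2226 and 738 CPM against 145068 and 103319, so cells very rich in these genes were seen only among the non-cycling ones. Of 7 genes of luminal sweat gland cells 3 were called lower, KRT7, KRT8 and ELF5, of which KRT8 was at -0.80 with at least 5 mitosis genes and KRT7 at -0.96 with the KRT5 limit doubled. MIA, MSLN, GABRP, CDSN (corneodesmosin) and PDLIM4 were among the 15 genes with the lowest ratios.

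**Figure D2:**
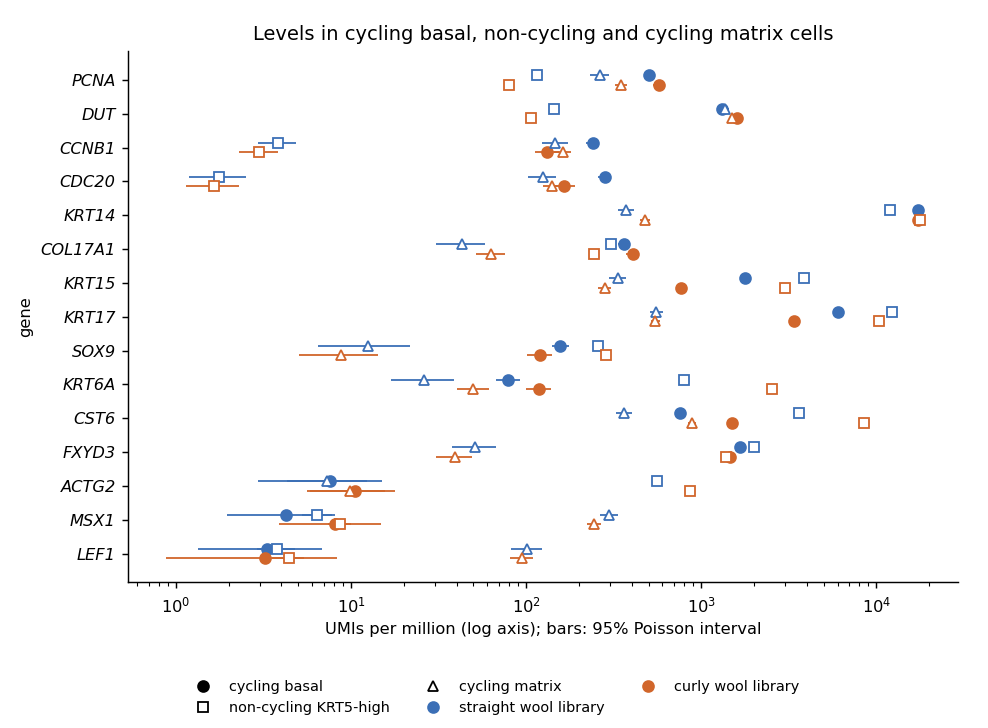
Level in UMIs per 1000000 (log axis) of 15 genes in cycling basal (filled circles), non-cycling KRT5-high (open squares) and cycling matrix cells (open triangles) of the straight (blue) and curly (orange) library, with exact 95% Poisson intervals. PCNA, DUT, CCNB1 and CDC20 lie with the matrix cells, KRT14, COL17A1 and FXYD3 with the non-cycling KRT5-high cells, and KRT15, KRT17, SOX9, KRT6A and CST6 between these classes.

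Because the rule sets a threshold, levels were also followed over all KRT5-high cells by the number of mitosis genes with a UMI, from 0 to 6. The number itself goes with depth, since median UMIs ran from 7279.5 and 7432 at 0 to 15966 and 16776 at 6. KRT6A went from 796 CPM at 0 through 502 at 2 to 45.1 at 6 in straight cells, and from 2523 through 1029.8 to 58.8 in curly cells. CST6 went from 3630.5 to 697 and from 8511 to 1448. For KRT15 the levels were 3872, 1702 and 1758 CPM at 0, 3 and 6 genes in straight cells and 2986, 784 and 1034 in curly cells. These genes were thus already low at 3 mitosis genes, just outside the rule, in at least 1 library each. KRT14 had no such order, with values between 11012 and 18662 CPM in straight and between 10592 and 24918 in curly cells.

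Mitotic genes rise along this count by its construction. PCNA was highest at 4 genes, at 683 and 713 CPM, and lower at 6, at 418 and 534, whereas DUT, another gene of DNA synthesis, was at 1388 and 1659.8 CPM at 4 genes and 1291 and 1575 at 6. CKS2, a subunit of cyclin-dependent kinases, rose at every step to 1567 and 1708 CPM at 6 genes. HMGB2 rose at every step likewise, from 148 and 90.2 to 1944 and 1992. CDKN2C was highest at 6 genes, at 92.9 and 176 CPM.

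**Figure D3:**
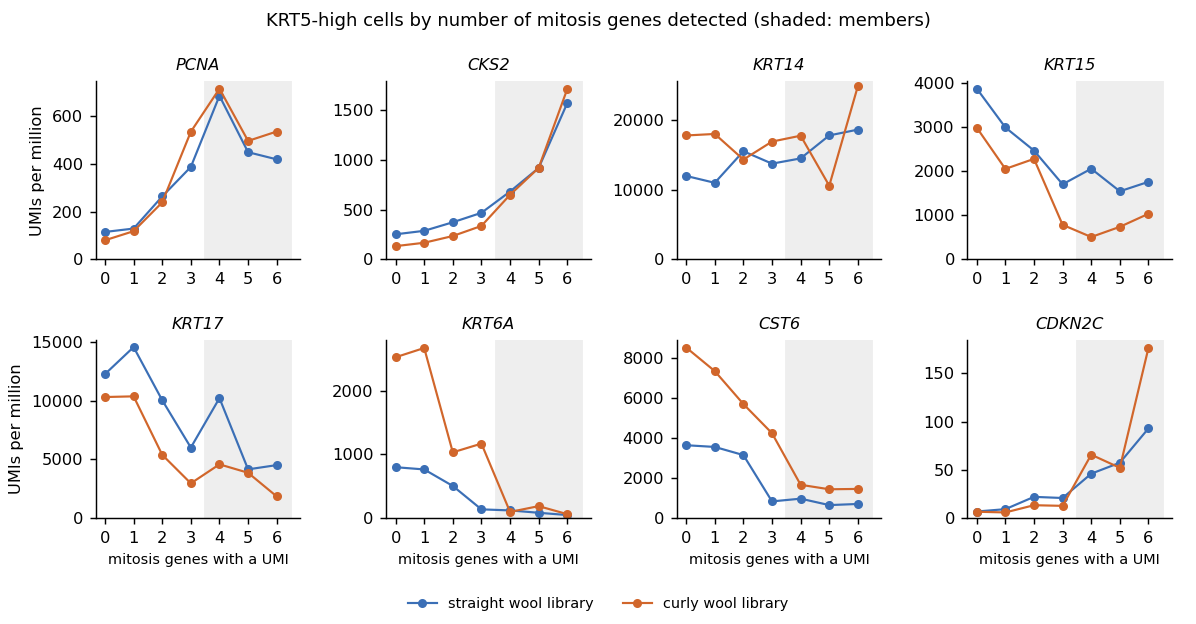
Level in UMIs per 1000000 (vertical axes, from 0) of 8 genes in KRT5-high cells outside the matrix, grouped by how many of the 6 mitosis genes had a UMI (horizontal axes), in the straight (blue) and curly (orange) library; the shaded range holds the cycling basal cells. PCNA peaks at 4 genes, CKS2 and CDKN2C end highest at 6, KRT6A and CST6 fall to 45.1 to 1448 CPM there, and KRT14 keeps no order.

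Cycling basal cells were then set beside cycling matrix cells, the other large dividing population of the epithelium, to describe what distinguishes dividing cells of these compartments. KRT5, FABP7 and DCN were used to separate them. Of 4643 genes compared 338 were called higher (7.28%) and 121 lower (2.61%) in the basal cells, with a median log2 ratio over all genes of 0.10 and -0.04. The rule drew this contrast too, so the counts are again a description.

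Few genes of the cell cycle lists were called, but the shares over all genes were low too (7.28% higher and 2.61% lower). Both classes were chosen on the same mitosis genes, so likeness in cell cycle genes was in part set by the selection. The counts of these lists therefore describe the classes and support nothing. None of the 26 replication genes, the 12 condensin and cohesin genes or the 17 chromatin and tubulin genes was called. Of the nucleotide synthesis list 1 of 7 was called higher (RRM2, at 136 and 159.7 CPM against 56.3 and 66.4). TTK, a spindle checkpoint kinase, was 1 of 17 cyclins and kinases, SPC25 1 of 23 kinetochore genes, and CKS2 1 of 11 genes around the anaphase-promoting complex. With 3 mitosis genes allowed RRM2 (0.98), TTK (0.90) and CKS2 (0.93) lay under 2-fold. The medians of the cyclin, kinetochore and anaphase lists were 0.78 and 0.29, 0.74 and 0.31 and 0.76 and 0.42. In the spindle list 3 of 25 were called higher, with a median of 1.09 and 0.47, past 2-fold in straight cells. ANLN, which shapes the cleavage furrow, was at 122 and 91.2 CPM against 12.5 and 26.9, NUSAP1, a spindle protein, at 368 and 359 against 129 and 136, and CKAP2L was the third. Among the regulators of G1, CDKN2C was higher in basal cells (66.3 and 96.8 against 19.8 and 18.1 CPM), while CCND2 (38.9 and 21.8 against 158 and 101) and CDK6 (17.1 and 12.1 against 58.4 and 69.7) were lower.

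The basal programme set the dividing classes apart. Of 15 basal layer genes 11 were called higher and 2 lower, with a median of 2.25 and 1.75. KRT14 was at 17161 and 17343 CPM against 369.9 and 479, POSTN, a matricellular protein of basal cells, at 983 and 348 against 24 and 1.1, and COL17A1 at 362 and 405 against 42.7 and 62.6. The adhesion genes BCAM, at 134 and 154 against 416 and 327 CPM, and CDH3 (P-cadherin), at 45.5 and 63.7 against 128 and 140.5, were the pair called lower, and both lay under 2-fold with each cell given the same weight (-0.86 and -0.54). Of 8 suprabasal genes 6 were called higher, with LY6D, a surface protein of stratified epithelium, at 414 and 1229 against 16.7 and 8.78 CPM. Of 9 genes of follicle stem cells and outer root sheath 6 were called higher. KRT17 was at 6026 and 3391 CPM against 552 and 547, SOX9 at 157 and 120.2 against 12.5 and 8.78, and BARX2 at 69.7 and 91.2 against 2.08 and 6.04.

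The genes with the largest ratios over matrix cells were PTN (pleiotrophin, a heparin-binding growth factor) at 298 and 302 CPM against 5.21 and 4.94, CDH13, an anchored cadherin, at 107 and 48.4 against 2.08 and 0.549, and SPINK4, a protease inhibitor of the SPINK family, at 725 and 515 against 8.34 and 10.4. FXYD3, a regulator of the sodium pump, was at 1652 and 1457 against 51.1 and 39. The decoy receptor IL1R2, the extracellular matrix protein ECM1, the LIM factor LMO1 and the FGF carrier FGFBP1 were in the same group. In non-cycling KRT5-high cells SPINK4 was at 484 and 421 CPM, PTN at 208 and 182 and FXYD3 at 1991 and 1379, so these genes were present in non-dividing cells too.

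Genes of the matrix were low in the basal cells. Of 14 compared 11 were called lower and 1 higher, with a median of -2.42 and -2.81. MSX1, a homeobox factor of the matrix, was at 4.26 and 8.07 CPM against 296 and 244, LEF1, the nuclear effector of WNT signals, at 3.32 and 3.23 against 101 and 94.4, and HOXC13, the activator of hair keratins, at 3.32 and 3.23 against 51.1 and 43.4. In single cells MSX1 had a UMI in 9 and 5 cycling basal cells and LEF1 in 7 and 4. After thinning, LEF1 had a UMI in 0.752% and 1.33% of cycling basal cells, in 0.931% and 0.997% of non-cycling KRT5-high cells and in 35.2% and 26% of cycling matrix cells. CRABP2, a retinoic acid carrier, was the gene called higher, at 45 and 39.5 against 18.8 and 15.9, but at a log2 ratio of 0.50 with at least 5 mitosis genes. In the list of WNT, BMP, NOTCH and hedgehog genes 5 of 15 were called lower, ID2, WNT6, SMAD7, BMP7 and JAG1, of which the BMP target ID2 was at 78.2 and 118 against 565 and 479 CPM.

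The 220 cells were grouped among themselves on genes outside the cell cycle lists and the rule, centred within each library, and k-means with 3 groups gave subclusters of 112, 97 and 11 cells. The groups were made from these genes, so what follows describes them. Subcluster 1 had 66 straight and 46 curly cells and subcluster 2 had 68 and 29. The 11 cells of subcluster 3 had a median of 1549 UMIs, against 14577 and 17911 in the other two, and it stays unnamed. With 2 groups in place of 3, subclusters 1 and 2 were found again with all their 112 and 97 cells. With 4 groups 87 cells of the first and 81 of the second stayed together. Another group then drew 25 cells of the first and 13 of the second, and 3 cells of the second joined the first.

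Subcluster 1 was the richer in basal layer genes, at a summed 27362 CPM against 14813 in subcluster 2, and in suprabasal genes, at 6447 against 2587 CPM. KRT14 was at 23145 and 11779.5 CPM in subclusters 1 and 2, COL17A1 at 616 and 151, KRT10 at 1637 and 224, LY6D at 1244 and 229 and the ligand WNT3 at 58.6 and 11. MX1 and ISG15, interferon response genes, were also among its leading genes, but through curly cells, where MX1 was at 336.7 against 39.6 CPM in subclusters 1 and 2 (straight cells 5.57 against 3.34). Subcluster 2 was the richer in genes of follicle stem cells and outer root sheath, at 9598 against 3967 CPM, and in immediate early genes, at 13519 against 4568 CPM. KRT17 alone held most of the gap in the stem cell and outer root sheath list, at 2385 and 7533 CPM. SOX9 was at 75.4 and 199, PTN at 163 and 426 and SPP1 (osteopontin) at 12.5 and 321. For SPP1 the gap lay mainly in straight cells, at 10.0 and 449 CPM, with 15.6 and 34.0 CPM in curly cells. KRT15 did not part them, at 1563 and 1236 CPM, nor did CXCL14, at 1088 and 1101.

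Genes of the cell cycle lists and of the rule had not entered the grouping. Genes tied to division outside these lists, such as CDCA3 and TACC3, were not kept out of it. The spindle list summed to 3342 CPM in subcluster 1 and 2102 in subcluster 2, the replication list to 2579 and 2127, and TOP2A was at 637 and 262 CPM. The cells with the highest 6% of doublet scores were 9 of the 112 and 19 of the 97. KRT19, a keratin of gland lumens, was at 12.5 and 178 CPM, mainly through curly cells (21.2 and 524 CPM, straight cells 5.57 and 24.2). The part of doublets and of the response to dissociation in this division was not tested.

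**Figure D4:**
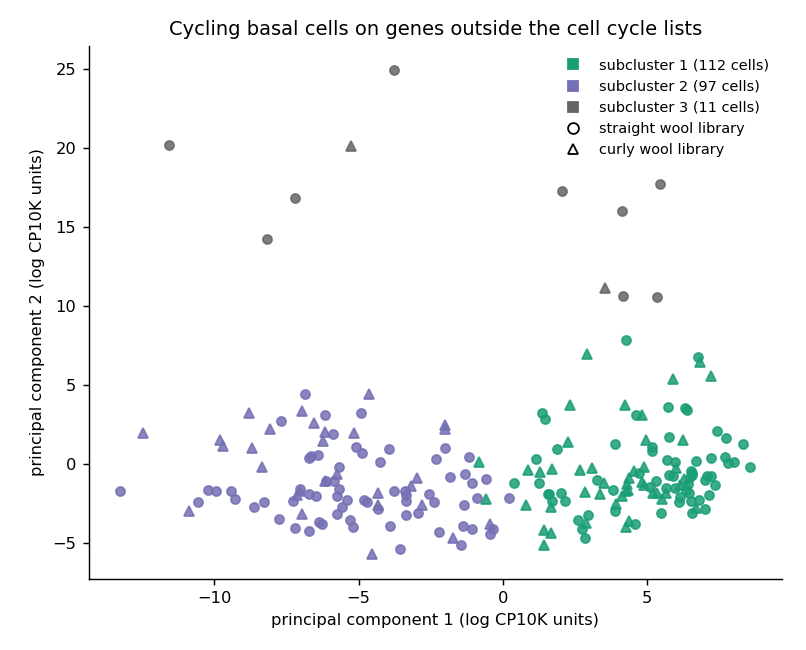
The 220 cycling basal cells on the first and second principal component (log units of UMIs per 10000) of genes outside the cell cycle lists, coloured by subcluster, with straight cells as circles and curly cells as triangles. Subclusters 1 and 2 (112 and 97 cells) divide along the first component and each holds cells of both libraries, while the 11 cells of subcluster 3 lie apart on the second.

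Between the wool types, 3478 genes with at least 100 UMIs over both libraries were compared in the cycling basal cells, which asks how the dividing keratinocytes of curly wool skin differ from those of straight wool skin. In the curly library 71 genes were at least 2-fold higher (2.04%) and 163 at least 2-fold lower (4.69%), with a median log2 ratio of -0.09. When the richest cell of the higher library was left out gene by gene, an alternative added after seeing the data, 50 of the 71 and 136 of the 163 stayed past 2-fold.

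The largest ratios were those of BST-2A and LOC105602911, which had no UMI in straight cells, then LOC101117112 and IFI6. All 5 interferon response genes of the list with enough UMIs were higher in curly cells, with a median log2 ratio of 5.62. IFI6, an interferon-induced mitochondrial protein, went from 10.4 to 6193 CPM and had a UMI in 17 of 143 and 77 of 77 cells. ISG15, a ubiquitin-like modifier, went from 4.26 to 295 CPM and the antiviral GTPase MX1 from 4.26 to 209. The other genes were B2M, the light chain of class I molecules, at log2 1.80 (1.69 to 1.92), and the transcription factor IRF7 at 1.32 (0.83 to 1.82). BST-2A, a tetherin gene, reached 301 CPM in the curly cells, at least 212-fold higher against the floor of 3 counts over the library, and the unnamed LOC105602911 213 CPM, at least 149.8-fold higher. The unnamed loci LOC101117112, LOC114117804, LOC101113168 and LOC114117806 had log2 ratios of 9.22, 7.76, 6.85 and 6.41. In the cell with the most ISG15 lay 41% of the curly UMIs of that gene, and without it the log2 ratio was 5.38 in place of 6.11.

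IFI6 and MX1 were higher in non-dividing cells of the curly library as well, where IFI6 had a log2 ratio of 9.18 (8.99 to 9.38) against 9.21 (8.62 to 9.89) in cycling basal cells and MX1 one of 5.13 against 5.62. In cycling matrix cells IFI6 went from 11.5 to 389 CPM, a log2 ratio of 5.08 (4.24 to 6.09). Whether these ratios differ between the classes beyond the spread between lambs could not be tested.

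Among genes with at least 100 UMIs, none of the replication, nucleotide, cyclin, kinetochore, spindle, condensin or anaphase lists had one past 2-fold, and their medians lay between -0.35 and 0.26. CCNB1 had a log2 ratio of -0.86 (-1.12 to -0.60), CDC20 one of -0.76 and PCNA one of 0.17 (0.03 to 0.31), none of them past 2-fold. In the chromatin and tubulin list 2 of 17 were lower, both of them tubulins. TUBA1C was at 253 and 75 CPM, log2 -1.75 (-2.09 to -1.43), and TUBB at 594 and 289, log2 -1.04 (-1.21 to -0.87), which was -0.94 when scaled by the median ratio. In non-cycling cells the ratios were -0.65 and -0.92, and in cycling matrix cells -1.74 and -0.84. Among the regulators of G1, CDKN1A was lower in curly cells, at 297 and 129.9 CPM, log2 -1.19 (-1.45 to -0.94).

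Of 16 basal layer genes 3 were lower in curly cells and none higher. POSTN was at 983 and 348 CPM, with a log2 interval from -1.65 to -1.35, and had a log2 ratio of -1.08 in non-cycling cells. KRT15 was at 1766 and 770.3 CPM, log2 -1.20 (-1.30 to -1.09), against -0.38 in non-cycling cells, and with at least 5 mitosis genes required it was at -0.92. DST, a plakin of the hemidesmosome, was at 55 and 27.4 CPM and passed no longer without its richest cell. KRT14 was at 0.02 (-0.01 to 0.04).

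Of 8 suprabasal genes 3 were higher in curly cells. LY6D was at 414 and 1229 CPM, log2 1.57 (1.45 to 1.69), and 1.46 without its richest cell. KRT10 was at 604 and 1407 CPM, log2 1.22 (1.12 to 1.33), but 37% of its curly UMIs lay in 1 cell, and without that cell the ratio was 0.60. KRTDAP was at 403 and 807 CPM, just past 2-fold, and had a log2 ratio of 0.66 without its richest cell. Of the follicle stem cell and outer root sheath list GJB6, a connexin, was higher and CXCL14 and PTHLH lower among 8 compared, and GJB6 and PTHLH passed no longer without the richest cell, nor CXCL14 with at least 5 mitosis genes (-0.86).

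Among genes lower in curly cells, the lowest ratio was that of LOC114115666, an unnamed locus with a UMI in 97 straight cells and none in curly cells, at least 37.4-fold lower. CCL20, a chemokine, was at 94.8 and 4.84 CPM and had a UMI in 17 and 4 cells, and CXCL8, the neutrophil chemokine, at 46.4 and 2.42 CPM in 13 and 3 cells. SPP1 was at 259 and 23.4 CPM in 34 and 17 cells, log2 -3.47 (-4.06 to -2.93), whereas in non-cycling cells it was at 302 and 268 CPM. TFPI2, a protease inhibitor, was at 212 and 25.8 CPM, log2 -3.04 (-3.60 to -2.52), and SOD2, the mitochondrial superoxide dismutase, at 266 and 39.5, log2 -2.75 (-3.20 to -2.33). S100A4 was at 195 and 33.1 CPM and the EGFR ligand AREG at 77.7 and 16.1. Non-cycling cells had gaps in the same direction. After thinning, LOC114115666 had a UMI in 22.6% and 0.315% of them and SOD2 in 30.7% and 13.8%. For S100A4 these shares were 20.5% and 7.45%, and for TFPI2 13.9% and 7.66%. For CXCL8 the direction rested on few cells, since with 3 mitosis genes allowed the log2 ratio was 0.14.

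KRT19 and KRT8, keratins of gland lumens, were higher in curly cells, KRT19 at 16.1 and 237 CPM in 10 and 19 cells and KRT8 at 10.9 and 89.5 CPM in 14 and 15 cells. Their log2 ratios were 3.88 (3.37 to 4.44) and 3.04 (2.38 to 3.75), and 3.51 and 2.35 without the richest cell. With the highest 6% of doublet scores removed they were 3.71 and 3.33, and with 3 mitosis genes allowed 2.46 and 1.90. Non-cycling KRT5-high cells lay the same way. After thinning, KRT19 had a UMI in 6.89% and 16.8% of them and KRT8 in 10.4% and 25.5%.

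**Figure D5:**
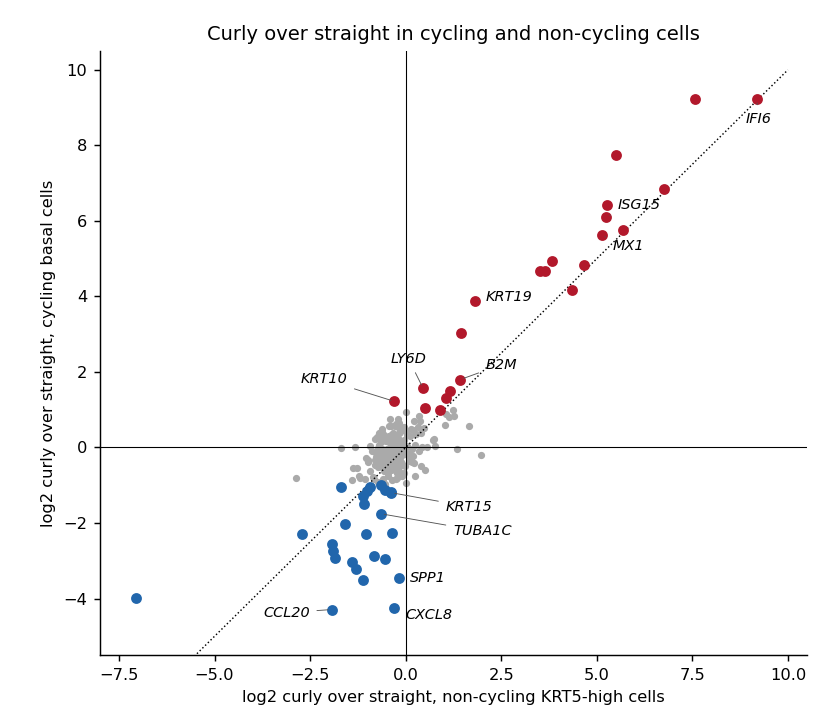
Log2 ratio of curly over straight in cycling basal cells (vertical axis) against the same ratio in non-cycling KRT5-high cells (horizontal axis), for genes of the lists and named genes with at least 100 UMIs and no class at 0; red and blue points are at least 2-fold higher or lower in curly cycling basal cells, grey points lie between, and the dotted line marks equal ratios. Interferon genes such as IFI6, ISG15 and MX1 lie near or above the line, while SPP1 and CXCL8 are near 0 in non-cycling cells and at -3.47 and -4.26 in cycling ones.

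Transcripts of other cell types were present at low levels. Genes of the dermal papilla and fibroblast list had a UMI in 135 of 143 and 64 of 77 cells, with 17 and 13 of 17 genes detected. Medians were 317 and 131 CPM per cell and the highest cells held 11103 and 11330 CPM. Of the shallower non-cycling cells 75.7% and 64.5% had such a UMI, with medians of 249 and 135 CPM. The list includes IGFBP3, which after thinning had a UMI in 38.4% and 22.7% of cycling basal and 31.2% and 18.8% of non-cycling cells. COL1A1 had one in 5.26% and 1.33% of cycling basal cells. Of 12 endothelial genes 8 and 8 were detected, in 15 and 12 cells. Of 13 immune genes 9 and 10 were detected, in 31 and 13 cells, with highest cells of 1754 and 5289 CPM. Luminal sweat gland genes had a UMI in 41 and 43 cells, with 8 and 7 of 8 detected and highest cells of 2989 and 7697 CPM. Contractile genes were found in 73 and 47 cells, melanocyte genes in 20 and 11, Schwann cell genes in 13 and 5, and haemoglobin in none. The part of these transcripts in the differences above was not tested.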

How the data were processed

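Skin cells of straight and curly wool lambs were profiled with 10x droplet libraries, 1 per wool type. Cell Ranger 3.0.2 is named in the submitters' processing notes, reads were aligned to Oar_rambouillet_v1.0, and Seurat was used by the authors. The table deposited by the authors holds natural log values of a cell's UMI share (per 10000) plus 1. The design text gives 15830 cells and the deposited values cover 14037, all with at least 200 genes and 8285 with at least 1750.

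From the deposited values UMIs were recovered (100% of 28552149 non-zero values whole within 0.01, over 18161 genes), summed per class and library, and expressed as UMIs per 1000000 (CPM). Class comparisons needed 50 UMIs over both classes in each library, the wool comparison 100, and a call 2-fold (class comparisons: the same way in both libraries). With a single library a wool type there was no test. Intervals for counts were exact Poisson, for shares Clopper-Pearson and for ratios the exact binomial split. Named genes were the rule's genes, the most abundant and most different members of the lists, the 15 largest and 15 smallest ratios of each comparison, and the 10 leading genes of each subcluster. Cells, lists and members were chosen with earlier results of these data known. Doublets were scored with Scrublet (scanpy 1.11.5) and not removed, except in an alternative. Subclusters came from k-means on 10 principal components of 1000 variable genes (scikit-learn 1.9.0). The other tools were scipy 1.17.1, matplotlib 3.10.9, pandas 2.3.3, numpy 2.4.6 and Python 3.11.15, and the ratios and calls were tested on simulated data. KRT14 and KRT15 are LOC101118459 and LOC101117682 in the table, named through RefSeq (ARS-UI_Ramb_v3.0, names only). Alternatives changed the KRT5 limit, the number of mitosis genes, the DCN and keratin limits, the minimum of genes per cell (1750), depth, doublets, scaling, weighting, UMI minimum and number of subclusters. The result of 1 gene is not reported here.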

Additional observations from a re-analysis of the deposited data

Results flagged for a closer look

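KRT10 stood out because, in summed UMIs, its curly over straight ratio pointed in opposite directions in dividing and non-dividing KRT5-high cells. The log2 ratio was 1.22 in cycling basal cells and -0.30 in non-cycling cells, and the difference between them was not tested. In cycling basal cells the ratio was 0.60 without the curly cell richest in KRT10, which held 37% of the curly UMIs of that gene. The opposite direction did not hold in the medians per cell, which were 182 CPM in straight and 259.6 CPM in curly cycling basal cells and 200.4 CPM and 272 CPM in non-cycling cells.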

How the results depend on the processing

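The straight share lay above the curly share under every alternative run. As a percentage of all cells (straight, then curly) it was 2.87 and 1.41 with at least 3 mitosis genes, 1.46 and 0.699 with at least 5, 3.31 and 1.69 among cells that met the higher minimum of genes per cell given with the processing, and 0.852 and 0.458 after thinning to 3000 UMIs. With KRT5 of at least 10 UMIs per 10000 the curly share was 1.28. As a percentage of KRT5-high cells it was 6.35 and 3.72 with at least 3 mitosis genes, 3.23 and 1.84 with at least 5, 6.57 and 3.92 with that minimum, and 1.80 and 1.03 after thinning. After thinning, the rule was applied again and kept 43 and 26 cycling basal, 2026 and 2276 non-cycling and 8 and 26 cycling matrix cells. On these, 38 genes were higher and 7 lower than in matrix cells, and 10 higher and 18 lower in curly cells. Fewer cells and fewer UMIs were thus compared. With 4 times the UMI minimum, which by its construction compares fewer genes, 210 were higher and 179 lower than in non-cycling cells, 104 and 35 than in matrix cells, and 24 and 41 in curly cells. With at least 5 mitosis genes 103 genes were lower in curly cells. CXCL8 turned from -4.26 to 0.14 with at least 3 mitosis genes, and the cause was not tested. With 4 subclusters the largest held 40.9% of the cells in place of 50.9%. Of 3523 values of named genes under these alternatives 3140 moved by no more than their counting interval, 382 moved further and 1 changed direction, and thinning moved 101 of its 140. Of the 449 genes higher and 430 lower than in non-cycling cells, 163 and 107 were called again after thinning. No paired analysis was possible because each wool type has a single library.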
